A study of Mus musculus with 8 samples.

Results

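The genes described here are 10 marker genes of the retinal pigment epithelium and of melanin synthesis in mouse retina: Rpe65, Lrat, Rgr, Best1, Ttr, Tyr, Tyrp1, Dct, Pmel and Mitf. They were chosen by name, as markers of pigmented tissue carried over with a dissected retina. All 10 were found by symbol among the 26824 genes of the deposited count table. RNA sequencing compared 3 libraries labelled WT (wild type) with 5 libraries labelled KO, for a knockout of Kv8.2, a silent potassium channel subunit of photoreceptors that is encoded by Kcnv2. Each library came from the 2 retinas of 1 untreated mouse aged 1 month, numbered in the labels as WT 1, 2 and 3 and as KO 2, 3, 4, 5 and 6. No strain, allele or coat colour is named in the labels. The series text states that 2 KO samples were left out of the authors' own test but does not name them, and all 8 libraries were used here.

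The retinal pigment epithelium is a single layer of pigmented cells behind the photoreceptors. It takes up shed outer segments, exchanges nutrients and ions with the choroid, and rebuilds the light-sensitive chromophore 11-cis-retinal in the visual cycle. In that cycle LRAT esterifies vitamin A and RPE65 turns the ester into 11-cis-retinol. Its melanin is made inside melanosomes by the enzymes TYR, TYRP1 and DCT on fibrils of PMEL, and MITF is the transcription factor that switches these genes on. A dissected neural retina holds this tissue only as far as it adheres. Choroidal melanocytes, iris and ciliary body share the melanin genes, Muller glia also express Rgr, and the ciliary epithelium also makes Ttr, so only Rpe65, Lrat and Best1 point mainly to the pigment epithelium within the eye.

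The libraries held 17759146 to 25188870 counts, and levels are given as CPM, a gene's share of a library scaled to 1e+06 counts, after TMM scaling (trimmed mean of M values). Glul, the glutamine synthetase of Muller glia and a defining gene of the labelled tissue, had a mean of 2439 CPM in WT and 2668 CPM in KO. Kcnv2 was present in all 8 libraries, at 519 to 551 CPM in WT. KO 2, at 585 CPM, was the highest of the 8, and KO 3 to KO 6, at 398 to 447 CPM, were below every WT library. No library lacked the transcript and the allele is not named, so these counts do not check the labels, and the libraries are called by them. KO 4, KO 5 and KO 6 stood apart from the other libraries. Mitochondrially encoded genes took 3.02% to 3.70% of their counts, against 7.09% to 7.92% in WT, 6.52% in KO 2 and 5.23% in KO 3. KO 3 stood apart in another way, with 4.68% of its counts from lens genes, against at most 0.137% in any other library. The part of either in the results was not tested, and results are also given without these libraries.

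The upstream sequences of 3 melanin enzyme genes are shown because each carries the M-box word TCATGTG, a form of the E-box that MITF is known to bind in such promoters. Sequences come from RefSeq on GRCm38.p6 and cover the 250 bases before the annotated start of transcription, 5′ to 3′ along the gene. A window was matched for 8 of the 10 genes, 3 windows for Mitf, and none for Pmel and Ttr. Capitals mark TCATGTG or its reverse complement CACATGA. The full windows of Tyr (chr7:87493513-87493762, minus strand) and Dct (chr14:118052247-118052496, minus strand) follow.
Tyr: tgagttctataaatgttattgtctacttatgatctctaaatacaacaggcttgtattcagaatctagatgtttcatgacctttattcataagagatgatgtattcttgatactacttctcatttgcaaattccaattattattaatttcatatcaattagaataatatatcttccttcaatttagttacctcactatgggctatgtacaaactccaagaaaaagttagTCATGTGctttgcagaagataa
Dct: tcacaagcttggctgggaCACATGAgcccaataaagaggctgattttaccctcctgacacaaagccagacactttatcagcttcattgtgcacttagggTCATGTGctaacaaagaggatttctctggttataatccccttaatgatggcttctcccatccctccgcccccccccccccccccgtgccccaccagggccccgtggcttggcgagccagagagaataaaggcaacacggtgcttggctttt

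The matches are easier to compare in stretches of 27 bases, given in the order Tyr (chr7:87493518-87493544), Tyrp1 (chr4:80834156-80834182, plus strand), Dct sense (chr14:118052381-118052407) and Dct antisense (chr14:118052462-118052488).
Tyr: aaaaagttagTCATGTGctttgcagaa
Tyrp1: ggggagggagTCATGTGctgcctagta
Dct, sense: gcacttagggTCATGTGctaacaaaga
Dct, antisense: ttggctgggaCACATGAgcccaataaa
The word ended 16 bases before the RefSeq start in Tyr and 41 bases before it in Tyrp1. In Dct the sense match ended 145 bases and the antisense match 226 bases before the start. The GENCODE M21 annotation starts Tyrp1 further upstream, so that the same match begins 43 bases into its first exon, in the 5′ UTR. Every sense match was followed by the letters ct. On either strand TCATGTG occurred in 3 of the 8 genes with a window and in 3.25% of all 32851 mouse windows of this length. The shorter word CATGTG, which lies inside TCATGTG, was also in the window of Rpe65, giving 4 of 8 genes against 12.25% of all windows. CACGTG, the other common E-box, was in none of the 8 genes and in 6.02% of all windows. A match is a description of letters, and no binding was measured.

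All 10 genes had counts in every library, Best1 at or under the floor of 3 counts in 2 of them. Together, with the SD, they summed to 107.2 ± 11.8 CPM over the 3 WT libraries and to 114.7 ± 18.8 CPM over the 5 labelled KO, with 1788 to 3002 counts per library. Without Ttr the order of the means turned, to 87.0 CPM in WT and 83.0 CPM in KO. The sum overlapped between the groups, yet the genes behind it did not move as 1 block. Mean levels of Lrat, Rgr and Ttr were above WT in the libraries labelled KO, and those of the other 7 genes were below. With an adjusted p-value under 0.05 as the limit, edgeR's quasi-likelihood test called none of the 10, where 7.58% of the 20167 tested genes were called. At an unadjusted p-value under 0.05 edgeR had 2 of the 10, Lrat and Rgr, beside 27.3% of all tested genes, so their share does not exceed the background. These are also the 2 called by DESeq2, which called 15.5% of all genes. The voom method of limma called 5 (Rpe65, Lrat, Rgr, Ttr and Tyrp1) among 40.9% of all genes. In bulk RNA, fewer attached cells and less RNA of a gene per cell cannot be told apart.

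**Figure D1:**
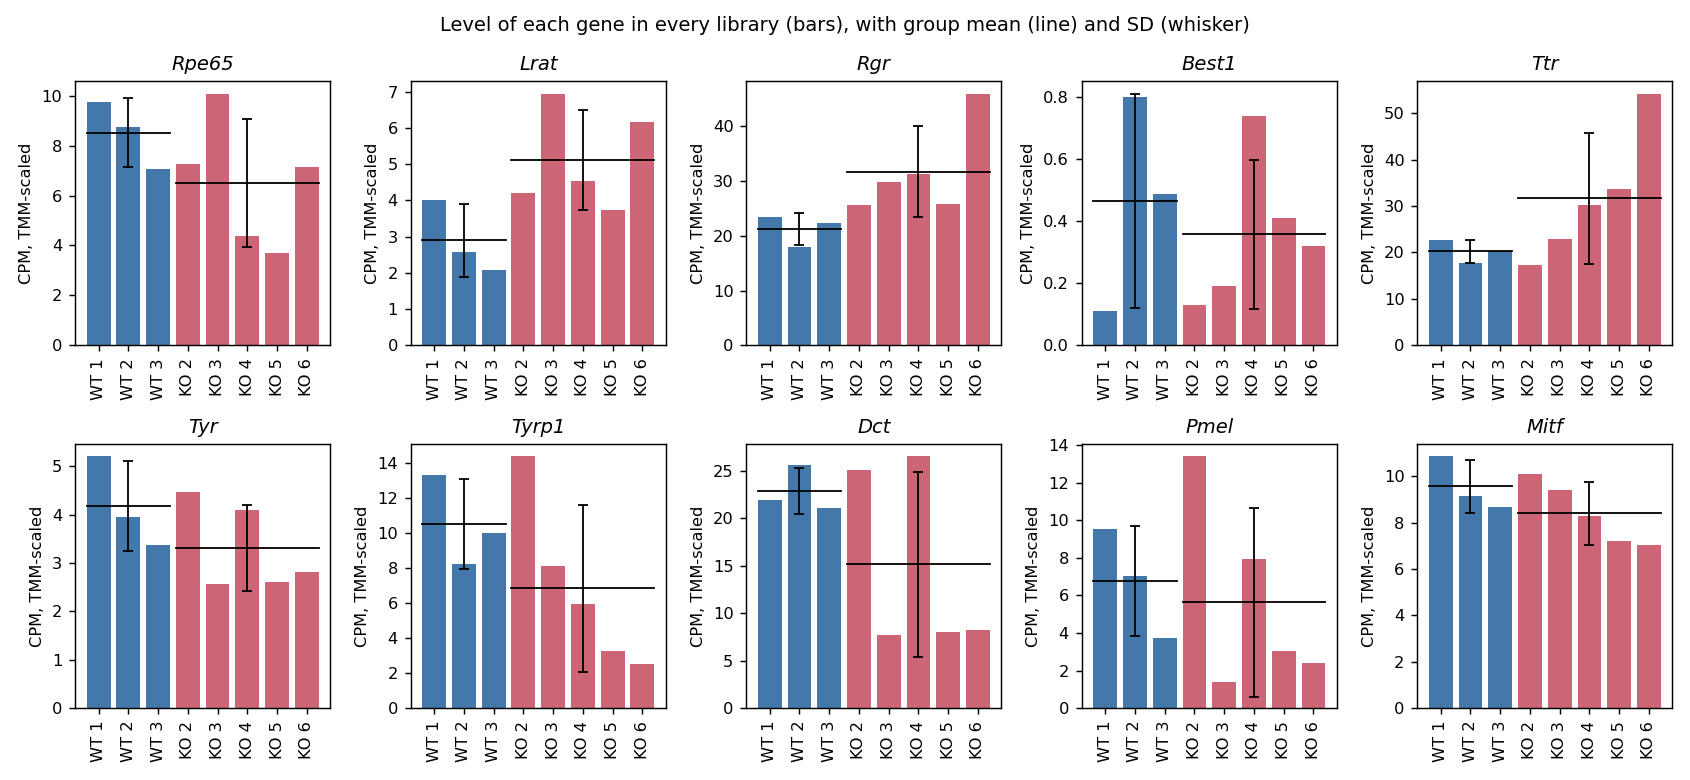
Level of each of the 10 genes (TMM-scaled CPM, linear axes from 0) in the 3 WT libraries (blue) and the 5 libraries labelled KO (red); lines mark group means and whiskers the SD. Rgr is the only gene with all 5 KO libraries above every WT library, and Dct, Pmel and Tyr have their 3 lowest values in KO 3, KO 5 and KO 6.

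Rpe65 (ENSMUSG00000028174, chr3:159599175-159625321), the isomerase of the visual cycle and the defining gene of the pigment epithelium, was at 9.76, 8.75 and 7.06 CPM in WT 1 to WT 3. In KO 2 to KO 6 it was at 7.25, 10.1, 4.38, 3.68 and 7.15 CPM. KO 3 was the highest of the 8, KO 4 and KO 5 were the lowest, and KO 2 and KO 6 lay within the WT range. Group means were 8.52 ± 1.36 CPM in WT and 6.51 ± 2.56 CPM in KO. The log2 fold change, KO against WT, was -0.39 (SE 0.29, 95% interval -1.03 to 0.26, edgeR adjusted p = 0.416). It did not stand out of the spread between libraries, and was -0.24 without KO 5, -0.59 without KO 3, -0.20 with the GC offset, and -0.78 with voom (limma adjusted p = 0.0109).

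Lrat (ENSMUSG00000028003, chr3:82892579-82903973), which makes the retinyl esters that RPE65 uses, had a higher mean in the libraries labelled KO. WT 1, WT 2 and WT 3 had 4.002, 2.59 and 2.09 CPM. The 5 libraries labelled KO had 4.21, 6.94, 4.53, 3.73 and 6.15 CPM, so that 4 of the 5 exceeded the highest WT library and KO 5 was below it. The mean was 2.89 ± 0.993 CPM in WT and 5.11 ± 1.37 CPM in KO, a log2 fold change of 0.83 (SE 0.28, 95% interval 0.22 to 1.44). Its unadjusted p-value in edgeR was 0.0125 and the adjusted one 0.0862, short of the threshold. An offset for GC content put it past the threshold, with 1.04 and an adjusted p-value of 0.0473 in edgeR, and it was then the one of the 10 that was called, beside 7.36% of all genes.

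Rgr (ENSMUSG00000021804, chr14:37034909-37048964) encodes an opsin of the pigment epithelium and Muller glia that binds all-trans-retinal. Levels were 23.4, 17.9 and 22.4 CPM in WT and 25.5, 29.8, 31.3, 25.8 and 45.9 CPM in KO 2 to KO 6. Every KO library exceeded every WT library, as was so for 10.8% of all tested genes, and KO 6 was far above the other 4. Means were 21.2 ± 2.90 CPM in WT and 31.7 ± 8.35 CPM in KO. The log2 fold change of 0.58 (SE 0.19, 95% interval 0.15 to 1.01) had an unadjusted p-value of 0.0131 and an adjusted p-value of 0.0883 in edgeR.

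Best1 (ENSMUSG00000037418, chr19:9985174-10001633), the chloride channel bestrophin 1 of the pigment epithelium's basal membrane, was at the edge of detection. Its counts were 2, 17 and 11 in WT and 3, 4, 15, 8 and 7 in KO 2 to KO 6. WT 1 and KO 2 were at or below 3 counts, taken as the floor, which equals 0.130 to 0.165 CPM in these libraries. The log2 fold change was -0.41, and its 95% interval of -1.86 to 1.03 (edgeR adjusted p = 0.724) left the direction undetermined at this depth.

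Ttr (ENSMUSG00000061808) encodes transthyretin, the carrier of thyroid hormone and of retinol-binding protein, which pigment and ciliary epithelium secrete. It was at 22.6, 17.8 and 20.2 CPM in WT 1 to WT 3. KO 2 and KO 3 had 17.3 and 23.0 CPM, close to the WT libraries. KO 4, KO 5 and KO 6 had 30.2, 33.6 and 54.2 CPM, all above WT. The mean was 20.2 ± 2.43 CPM in WT and 31.7 ± 14.1 CPM in KO, with a log2 fold change of 0.65 (SE 0.30, 95% interval -0.027 to 1.32, edgeR adjusted p = 0.198). Without KO 6 it was 0.37, and over the fits without 1 library or 2 KO libraries, other than that without KO 2 and KO 3 given below, it ran from 0.22 to 0.87. Voom gave 0.74 (limma adjusted p = 0.0110).

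Tyr (ENSMUSG00000004651, chr7:87424771-87493512) encodes tyrosinase, which catalyses the first and limiting step of melanin synthesis. Its level was 5.21, 3.95 and 3.37 CPM in WT and 4.47, 2.57, 4.09, 2.61 and 2.82 CPM in KO 2 to KO 6. KO 2 and KO 4 were within the WT range and the other 3 below it. The mean was 4.18 ± 0.938 CPM in WT and 3.31 ± 0.899 CPM in KO, and the log2 fold change was -0.33 (SE 0.24, 95% interval -0.87 to 0.21, edgeR adjusted p = 0.408). Without WT 1 it was -0.14, and the GC offset turned it to 0.066.

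Tyrp1 (ENSMUSG00000005994, chr4:80834123-80851719), a tyrosinase-related enzyme that acts late in the making of eumelanin, varied 5.73-fold between libraries. WT 1 to WT 3 had 13.3, 8.23 and 9.99 CPM. KO 2 was the highest of all, at 14.4 CPM, and KO 3, at 8.08 CPM, was just below the lowest WT library. KO 4, KO 5 and KO 6 were lower, at 5.96, 3.27 and 2.51 CPM. Means were 10.5 ± 2.59 CPM in WT and 6.84 ± 4.76 CPM in KO, a log2 fold change of -0.61 (SE 0.46, 95% interval -1.64 to 0.41, edgeR adjusted p = 0.417). It was -1.08 without KO 2 and -0.40 without KO 6, within a range of -1.18 to -0.15 over the same fits. Voom gave -1.31 (limma adjusted p = 0.00325).

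Dct (ENSMUSG00000022129, chr14:118012790-118052244) encodes dopachrome tautomerase, the enzyme between TYR and TYRP1 in the pathway, and split the libraries labelled KO most sharply. WT libraries lay close together at 21.98, 25.6 and 21.1 CPM. KO 2 and KO 4 had 25.1 and 26.5 CPM, whereas KO 3, KO 5 and KO 6 had 7.75, 8.02 and 8.24 CPM. No library lay between these 2 levels. The KO mean of 15.1 ± 9.78 CPM therefore describes none of the 5 libraries, and its log2 fold change against the WT mean of 22.9 ± 2.38 CPM was -0.59 (SE 0.42, 95% interval -1.53 to 0.34, edgeR adjusted p = 0.388). Without KO 2 and KO 4, a choice that follows the measured level and so shows only the size of the gap, it was -1.51.

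Pmel (ENSMUSG00000025359, chr10:128704195-128720238) encodes the protein of the fibrils on which melanin is laid down, and had the widest range of the 10, 9.73-fold. Levels were 9.54, 7.05 and 3.73 CPM in WT and 13.4, 1.38, 7.93, 3.02 and 2.41 CPM in KO 2 to KO 6. The highest and the lowest library were thus both labelled KO, and KO 3, KO 5 and KO 6 were again the 3 lowest. The log2 fold change was -0.26 (SE 0.62, 95% interval -1.64 to 1.12, edgeR adjusted p = 0.827). It was -0.87 without KO 2, -0.55 without WT 3, -0.41 without KO 4, -0.10 without KO 5, -0.064 without KO 6, 0.068 without WT 1 and 0.00019 without KO 3, so its sign rests on single libraries. Pmel overlaps exons of Cdk2 and Dgka on the other strand, and the strand setting of the counting is not given in the sources used here. Cdk2 (2.12 to 4.28 CPM) and Dgka (4.09 to 6.09 CPM) ranged less widely. In KO 3, where Pmel was lowest, Cdk2 was highest and Dgka was lowest. The part of these overlaps in the Pmel values was not tested.

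Mitf (ENSMUSG00000035158, chr6:97807052-98021349), the regulator of the melanin genes, varied least of the 10. It was at 10.9, 9.17 and 8.66 CPM in WT and 10.1, 9.41, 8.27, 7.21 and 7.01 CPM in KO 2 to KO 6. KO 4, KO 5 and KO 6 were below the lowest WT library, and KO 2 and KO 3 were within the WT range. Means were 9.56 ± 1.15 CPM in WT and 8.40 ± 1.35 CPM in KO, with a log2 fold change of -0.18 (SE 0.16, 95% interval -0.54 to 0.17, edgeR adjusted p = 0.483). Without WT 1 it was -0.085. For Mitf the GC offset gave -0.014 (edgeR adjusted p = 0.959), and voom gave -0.32 (limma adjusted p = 0.0590).

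The 10 genes thus had 3 positive and 7 negative log2 fold changes with a median of -0.29, and the median of all tested genes was 0.00073. That median was -0.11 without WT 1, -0.19 without KO 5, -0.11 with the GC offset, -0.36 with KO 4, KO 5 and KO 6 alone and 0.029 with KO 2 and KO 3 alone. Because KO 4, KO 5 and KO 6 stood apart over the whole transcriptome, the comparison was repeated without them and without KO 2 and KO 3. These sets were chosen from the data and are not groups of the study, and both comparisons share the WT libraries. With KO 2 and KO 3 alone against WT, none of the 10 genes was called by edgeR, where 0.891% of all genes were, and 2 had an unadjusted p-value under 0.05, beside 19% of all genes. Those 2 were again Lrat, at 0.95 (SE 0.33, edgeR adjusted p = 0.187), and Rgr, at 0.38 (SE 0.14, adjusted p = 0.205). Rpe65, Ttr, Tyrp1 and Mitf were within 0.10 of no difference there, at 0.026, -0.0044, 0.10 and 0.033. Their 95% intervals still reached 0.50 for Rpe65, -0.36 and 0.36 for Ttr, 0.72 for Tyrp1 and 0.40 for Mitf. In the same fit Dct was at -0.47 (SE 0.38), Tyr at -0.24 (SE 0.30) and Pmel at 0.14 (SE 0.71). Best1, near the floor, was at -1.54 (SE 0.87).

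With KO 4, KO 5 and KO 6 alone against WT, 5 of the 10 genes were called by edgeR, beside 42.8% of all genes tested, so that the share of the 10 is near the background. The 3 libraries were set together because they stood apart in these data, and their p-values depend on that choice. Of these, 3 were higher (22.3% of all genes were called higher) and 2 lower (20.5% were called lower). Ttr, at 0.98 (SE 0.18, edgeR adjusted p = 0.000859), Rgr, at 0.71 (SE 0.17, adjusted p = 0.00520), and Lrat, at 0.76 (SE 0.26, adjusted p = 0.0321), rose. Tyrp1 fell by 1.41 on the log2 scale (SE 0.27, edgeR adjusted p = 0.00112), and Rpe65 fell by 0.73 (SE 0.22, adjusted p = 0.0187). Whether the values differ between these libraries and KO 2 and KO 3 was not itself tested. Dct, at -0.67 (SE 0.34, edgeR adjusted p = 0.134), was not called, since KO 4 was high and KO 5 and KO 6 were low. The share of mitochondrial counts was lowest in the same 3 libraries, and its part in these values was not tested.

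**Figure D2:**
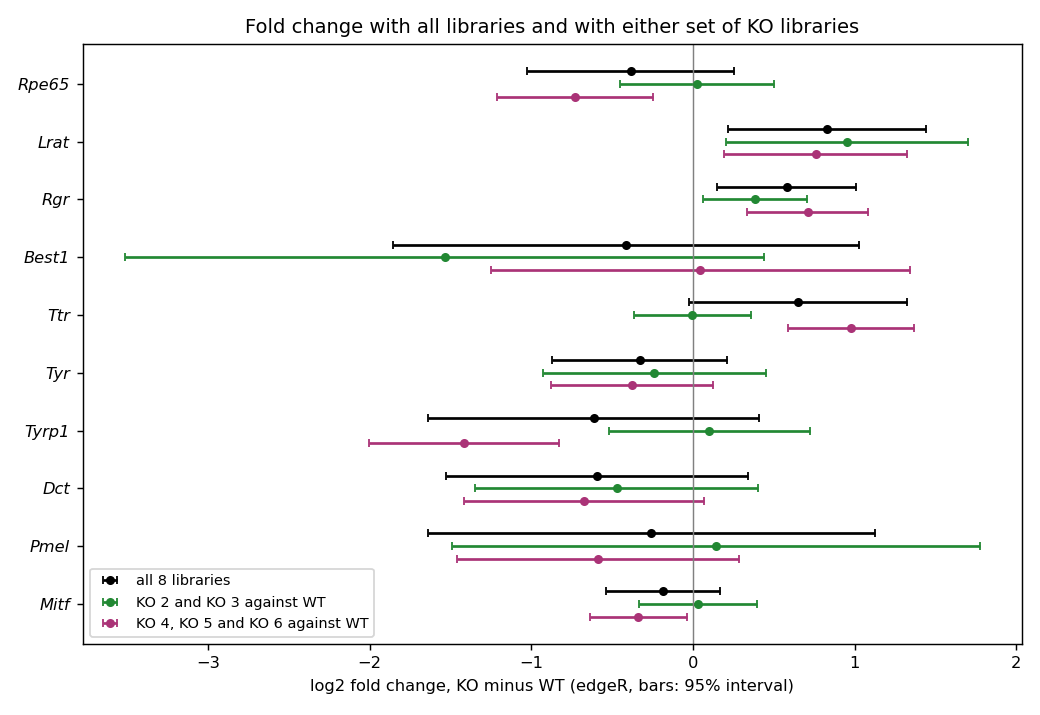
Log2 fold change of each of the 10 genes, KO minus WT, from edgeR with its 95% interval, for all 8 libraries (black), for KO 2 and KO 3 against WT (green) and for KO 4, KO 5 and KO 6 against WT (purple). Lrat and Rgr lie above 0 in all 3 fits, whereas Ttr lies at 0.98 in the purple and -0.0044 in the green fit, and Tyrp1 at -1.41 and 0.10.

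The ratio of 2 genes within a library does not depend on scaling. The ratios were chosen after the levels were seen, and their exact 95% binomial intervals cover counting error only. For 1 Rpe65 count, WT 1 to WT 3 had 2.25, 2.92 and 2.99 Dct counts. KO 2 had 3.47 and KO 5 had 2.18, near the WT libraries. KO 3 had 0.769 (interval 0.623 to 0.948) and KO 4 had 6.06 (interval 4.83 to 7.67), so that 2 libraries of 1 label lay on opposite sides of all WT libraries. KO 6 had 1.15, also below WT.

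Rgr for 1 Rpe65 count sorted the libraries otherwise, with 2.39, 2.05 and 3.17 in WT. KO 2 had 3.52 and KO 3 had 2.96, whereas KO 4, KO 5 and KO 6 had 7.15, 7.01 and 6.42. The last 3 did not differ beyond counting error and were above the other 5 libraries. Ttr for 1 Rpe65 count had the same split, with 2.39 in KO 2 and 2.28 in KO 3, inside the WT range of 2.03 to 2.87, but 6.90, 9.14 and 7.58 in the other 3. Lrat for 1 Rpe65 count was 0.296 to 0.410 in WT and 0.581 to 1.03 in the libraries labelled KO.

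Among the melanin genes, Tyrp1 for 1 Dct count was 0.606, 0.322 and 0.474 in WT 1 to WT 3, 0.572 in KO 2, 0.408 in KO 5 and 0.304 in KO 6. KO 3, at 1.04 (interval 0.836 to 1.30), was above all of them, and KO 4, at 0.225 (interval 0.183 to 0.274), below. Tyr for 1 Dct count was 0.154 to 0.237 in WT, 0.178 in KO 2 and 0.154 in KO 4, and 0.331, 0.325 and 0.343 in KO 3, KO 5 and KO 6. KO 3, KO 5 and KO 6 are the libraries low in Dct, the denominator of this ratio. Tyr itself was also lowest in them, at 2.57, 2.61 and 2.82 CPM, so the higher ratio does not show more Tyr. Pmel for 1 Dct count overlapped, at 0.177 to 0.434 in WT and 0.178 to 0.534 in KO.

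**Figure D3:**
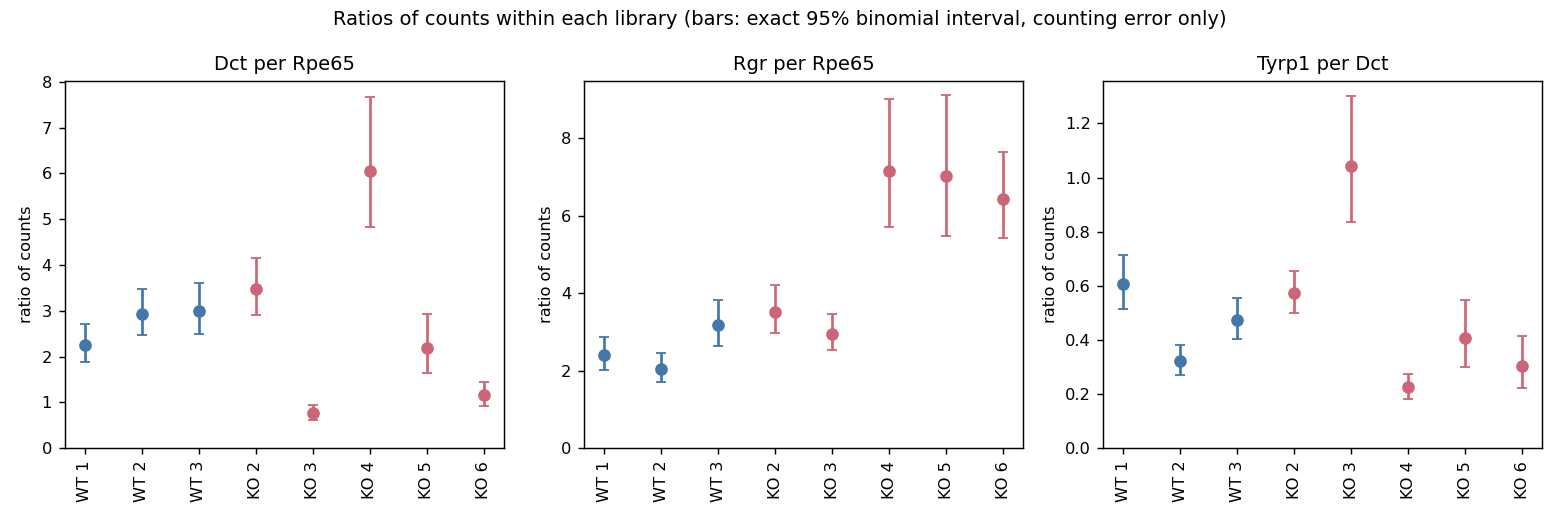
Ratio of counts of 2 genes within each library (points) with the exact 95% binomial interval, for Dct per Rpe65, Rgr per Rpe65 and Tyrp1 per Dct, with WT in blue and KO in red. Dct per Rpe65 runs from 0.769 in KO 3 to 6.06 in KO 4, and Rgr per Rpe65 is above 6 only in KO 4, KO 5 and KO 6.

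Levels of different genes can be compared only per length, here as CPM per kilobase of the longest protein-coding transcript in GENCODE M21. In WT, Ttr was first at 17.1 ± 2.05 (SD, n = 3) and Dct second at 10.4 ± 1.08 CPM per kilobase. Rpe65 (4.57 ± 0.732), Rgr (4.51 ± 0.616), Tyrp1 (3.87 ± 0.951) and Pmel (3.18 ± 1.37) followed, and neighbours among these 4 did not differ beyond their spread. Mitf (1.96 ± 0.236) came next, then Tyr (0.691 ± 0.155) and Lrat (0.540 ± 0.186), which overlapped, and Best1 was last at 0.224 ± 0.166 CPM per kilobase. With the median transcript length instead, Ttr stayed first and Best1 last, but Pmel moved to 10.4 and Mitf to 4.49 CPM per kilobase, so the middle of the order rests on which transcript is taken. In the libraries labelled KO, Rgr, at 6.73 ± 1.78 (SD, n = 5), ranked above Rpe65, at 3.49 ± 1.37 CPM per kilobase.

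Other genes of the pigment epithelium showed how far the pattern extends. Of 15 further marker genes, 1 was called higher and none was called lower; 8 log2 fold changes were positive and 7 negative, with a median of 0.21 (4.74% of all genes were called higher and 2.84% lower). That gene was Itgb8, an integrin subunit, at 33.9, 33.5 and 33.4 CPM in WT and 39.7 to 47.8 CPM in KO. It rose by 0.41 (SE 0.087, edgeR adjusted p = 0.0262). Every KO library exceeded every WT library in 3 of the 15, Itgb8, Mertk and Enpp2, as in 10.8% of all genes. Enpp2, the secreted enzyme autotaxin, was at 0.27 (SE 0.088, edgeR adjusted p = 0.0803). Mertk, the receptor for engulfing outer segments, was at a log2 fold change of 0.51 (SE 0.16), but was not called (edgeR adjusted p = 0.0782). Cldn19, the tight junction claudin of this epithelium, was at -0.54 (SE 0.53, edgeR adjusted p = 0.538), with its lowest level in KO 6. Kcnj13, a potassium channel of this epithelium, Slc26a7, an anion transporter, and Ermn had small negative values of -0.081, -0.12 and -0.13. Like Rpe65, each was highest in KO 3 and lowest in KO 5. Rdh5, Stra6 and Slc16a8 had positive values of 0.37, 0.43 and 0.34, and none of them was called. Like Rgr, each of those was highest in KO 6 and lowest in WT 2.

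Of 9 tested genes of melanosomes and pigment transport, edgeR called none, and 7 had negative log2 fold changes, with a median of -0.24. At an unadjusted p-value under 0.05 edgeR had 2 of these 9 (27.3% of all genes), Slc24a5 and Oca2, DESeq2 called the same 2 (15.5% of all genes), and voom called 3 (40.9% of all genes). Slc24a5, a cation exchanger of the melanosome, was lower in every KO library than in any WT library, as were 10.1% of all genes, at -0.71 (SE 0.22, edgeR adjusted p = 0.0758). Gpnmb, a relative of Pmel that macrophages also express, repeated the pattern of Dct and Pmel. It was at 10.8, 8.46 and 6.17 CPM in WT and 14.3, 3.00, 12.4, 5.32 and 4.78 CPM in KO 2 to KO 6. Oca2, a membrane protein of the melanosome, was one of the 2 genes of the list with a positive log2 fold change, beside Rab27a, with a mean of 0.392 CPM in WT and 1.25 CPM in KO, its highest level in KO 3, and an edgeR adjusted p-value of 0.119. Gpr143 and Slc45a2 were too low to be tested, and Gpr143 was at 0 in KO 2 and KO 4.

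Apart from Mitf, which was negative, all 6 tested transcription factors of pigment cells had positive log2 fold changes, with a median of 0.25. They ran from 0.036 for Otx2, close to no difference, to 0.62 for Sox9. Of all 20167 tested genes, 10100 had positive values. Among the 6, 2 were called higher (4.74% of all genes were). Tfe3, a close relative of Mitf that drives lysosome genes in many tissues, rose by 0.51 (SE 0.11, edgeR adjusted p = 0.0254), from 28.1 to 31.4 CPM in WT to 36.5 to 46.0 CPM in KO. Sox9, which is also a Muller glia factor, rose by 0.62 (SE 0.13, edgeR adjusted p = 0.0269), from 13.8 to 16.7 CPM in WT to 20.4 to 27.5 CPM in KO. Of 12 further visual cycle genes, 10 had positive log2 fold changes, with a median of 0.24, and 1, Rbp3, was called higher, a share near the 4.74% of all genes. Rdh12, a photoreceptor retinol dehydrogenase, was lower in every KO library (234.9 to 292.2 CPM) than in any WT library (297.0 to 366.4 CPM), as were 10.1% of all genes, at -0.30 (SE 0.11), but was not called (edgeR adjusted p = 0.110). Rbp3, the retinoid carrier that photoreceptors secrete between retina and pigment epithelium, rose by 0.72 (SE 0.18, edgeR adjusted p = 0.0409), from 2640 to 2862 CPM in WT to 2866 to 5489 CPM in KO. Itgb8, Tfe3, Sox9 and Rbp3 are all expressed in neural retina as well. None of the 4 was called with KO 2 and KO 3 alone, at edgeR adjusted p-values of 0.0729 for Itgb8, 0.154 for Tfe3, 0.102 for Sox9 and 0.304 for Rbp3, and all 4 were with KO 4, KO 5 and KO 6. The 4 calls also rested on single libraries. Leaving out WT 1, WT 2, WT 3 or KO 4 ended all of them, leaving out KO 5 kept Itgb8 alone, and leaving out KO 6 kept Sox9 alone, with log2 fold changes of 0.38 to 0.45 for Itgb8, 0.48 to 0.57 for Tfe3, 0.55 to 0.68 for Sox9 and 0.65 to 0.86 for Rbp3 over all 8 such fits. With library size alone as the scaling, Tfe3 (edgeR adjusted p = 0.0523) and Rbp3 (adjusted p = 0.0524) were not called.

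**Figure D4:**
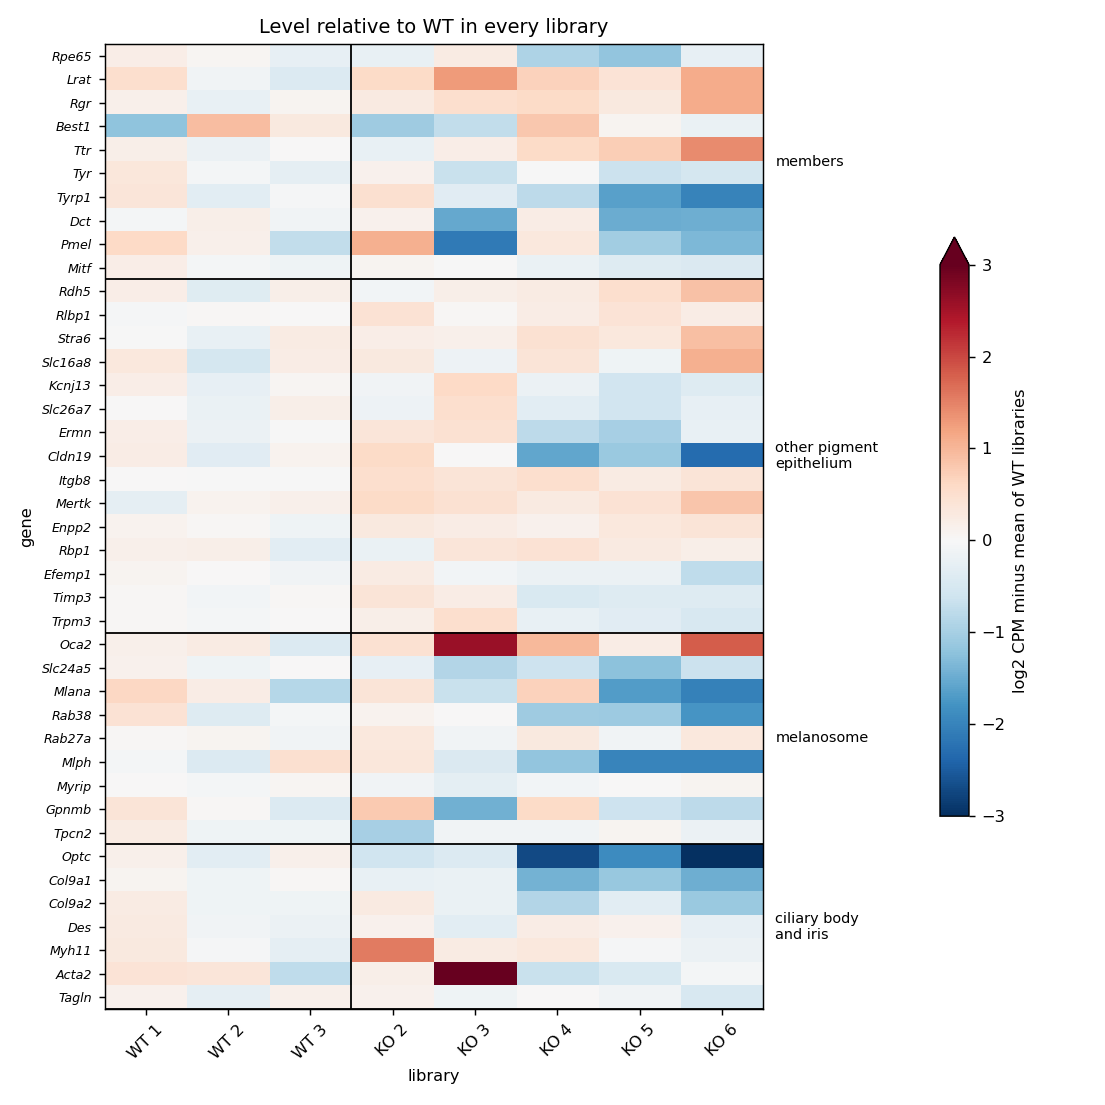
Log2 CPM of each gene (rows) in each of the 8 libraries (columns) minus the mean of the WT libraries, for the 10 genes and the lists of other pigment epithelium, melanosome, and ciliary body and iris genes; red is above and blue below WT, and the colour scale ends at 3. Dct, Pmel and Gpnmb are blue in KO 3, KO 5 and KO 6, while Optc and Col9a1 are darkest blue in KO 4, KO 5 and KO 6.

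Markers of the tissues that border the retina were summed in each library, because several of them hold pigment cells. Genes of the ciliary body and iris summed to 175.5 to 222.0 CPM in WT, 169.6 CPM in KO 2 and 196.2 CPM in KO 3, against 65.0, 85.7 and 53.6 CPM in KO 4, KO 5 and KO 6. Optc, opticin of the ciliary epithelium, and Col9a1 accounted for most of that sum, and the smooth muscle genes Des, Myh11 and Tagln did not share the split. Acta2, the other smooth muscle gene, was at 33.6 CPM in KO 3 and at 2.09 to 4.77 CPM elsewhere. Without it the list, an alternative chosen after seeing the data, summed to 170.9 to 217.2 CPM in WT, 165.5 CPM in KO 2 and 162.6 CPM in KO 3, both just below WT, and 50.2 to 83.1 CPM in the other 3. In KO 4, KO 5 and KO 6, Des was at 1.43, 1.33 and 1.00 CPM (WT 1.07 to 1.48), Myh11 at 3.40, 2.66 and 2.41 CPM (WT 2.27 to 3.34), and Tagln at 3.60, 3.32 and 2.55 CPM (WT 2.96 to 3.95). Optc was at 70.2 to 97.0 CPM in WT and at 57.7, 65.9, 13.3, 23.5 and 5.74 CPM in KO 2 to KO 6, a log2 fold change of -1.40 (SE 0.59, edgeR adjusted p = 0.155). The libraries lowest in Optc are those highest in Ttr and lowest in Tyrp1, and the part of Optc-expressing tissue in either was not tested. Choroidal melanocyte genes summed to 12.3 to 14.0 CPM in WT and 14.4 to 18.4 CPM in KO, in a list of 5 of which Pax3 is not in the table and Sox10 had 0 counts in WT 1 and at most 14 elsewhere. Genes of choroid and sclera summed to 59.0 to 69.5 CPM in WT and 67.7 to 97.1 CPM in KO, most of it Prelp.

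Lens genes summed to 23.6 to 1385 CPM in WT and 2.28 to 199.4 CPM in KO, apart from 48030 CPM in KO 3. Globin and other blood genes summed to 31.6 to 68.7 CPM in WT, 60.7 CPM in KO 2 and 19.0 to 25.0 CPM in the other KO libraries. Corneal genes reached 43.1 CPM in WT 1 and 0.592 to 14.7 CPM elsewhere. In KO 3, the library with the lens genes, Rpe65, Lrat and Oca2 had their highest level and Dct, Tyr and Pmel their lowest. Without KO 3 the log2 fold changes of Dct, Tyr and Lrat kept their sign, and that of Pmel moved to 0.00019. EdgeR called none of the 40 tested genes of the ciliary body, lens, cornea, muscle, blood, and choroid and sclera lists, with 9 at an unadjusted p-value under 0.05 (27.3% of all genes), and DESeq2 called 3 (15.5% of all genes) and voom 14 (40.9% of all genes).

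The genes whose log2 CPM ran most nearly parallel to that of Rpe65 over the 8 libraries, among 16800 ranked, were Gm45518, Gm43300, Gm1604a, D130020L05Rik, Dclre1a, Noct, Gm17131, Gm16244, Gpr149 and Terb1. Pearson's r ran from 0.925 to 0.953, as a description over libraries that differ in the same ways in many genes. For Tyrp1 they were E030042O20Rik, Zfp426, Cbx5, Zfp605, Isoc1, Gm49353, Zscan26, Camk2d, Eea1 and Plch1, with r from 0.968 to 0.994. None of these 20 is in any of the pigment or tissue lists. Among the 10 genes themselves, Mitf was the nearest to Tyrp1 (r = 0.95, rank 51). Tyr (0.70, rank 2819), Dct (0.68, rank 3022) and Pmel (0.58, rank 3964) came after it, and Ttr was the most opposed to Tyrp1 (r = -0.90). Of these genes Mitf was also nearest to Rpe65 (r = 0.67), at rank 1834. Lrat (r = 0.097) and Rgr (r = -0.19) did not run parallel to Rpe65.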

How the data were processed

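The deposited table holds whole-number counts per gene for 8 retina libraries; they were treated as rounded estimated counts (expected counts), because Salmon 1.10.2, Trim Galore and DESeq2 are named in the submitters' processing notes, with build GRCm38. Their order and parameters, the annotation release and the strand setting are not given in the sources used here. Every gene in the deposited table has at least 16 counts in all, so rarer genes had been removed before.

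Counts were scaled by TMM and tested with edgeR 4.0.16 (quasi-likelihood, R 4.3.3) on all 8 libraries without covariates, after filterByExpr kept 20167 of 26824 genes. P-values were adjusted by Benjamini-Hochberg over these genes, with calls made where that value was under 0.05. The edgeR steps were tested on simulated data for KO against WT with all 8 libraries. They recovered 116 of 200 genes given a 2-fold change (58%) and called 8 other genes. A gene that is not called can thus still differ by that much. Levels are TMM-scaled CPM, with the SD over libraries; log2 CPM used a prior count of 2. Each library is 1 mouse, so p-values measure the spread between mice. At 17759146 to 25188870 counts per library, 3 counts (the floor) equal 0.130 to 0.165 CPM; binomial intervals and floors cover counting error only, and intervals of log2 fold changes include the spread between libraries.

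The members and gene lists were chosen with earlier results of these data known. Named are all 10 members, Kcnv2, called list genes, and the 10 genes nearest to Rpe65 and to Tyrp1 by Pearson's r (mean log2 CPM of at least 0); Mertk, Cldn19, Kcnj13, Slc26a7, Ermn, Enpp2, Rdh12, Slc24a5, Gpnmb, Oca2, Optc, Col9a1 and the other list genes given with values were named after their values were seen. Gene positions, transcript lengths and overlaps are from GENCODE M21, and 31-mers shared with another gene were at most 3.54% (Pmel) among the 10. Alternatives were DESeq2 1.42.0, its size factors, library size alone, limma 3.58.1 voom with quality weights, other filters, a GC offset (18028 genes), a replicate block, and fits without 1 or 2 libraries. Median transcript length and the crossed block were chosen after seeing the data. One gene of the neural retina list was left out of the text.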

Additional observations from a re-analysis of the deposited data

Results flagged for a closer look

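Of 23 values examined over the 5 libraries labelled KO, 3 had an extreme library separated from its nearest neighbour by over 0.71 of their range; about 1.15 would be so by chance. Rgr in KO 6, at 45.92 CPM, was separated by 0.716 of the range from the other 4. The summed lens genes in KO 3, at 48030 CPM, were separated by 0.996. The summed blood genes in KO 2, at 60.69 CPM, were separated by 0.856.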

How the results depend on the processing

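Each gene had 30 alternatives (24 for Best1). Lrat, Rgr and Dct kept their direction in all of theirs, at 0.53 to 1.25, 0.35 to 0.76 and -1.51 to -0.20. The direction turned in 24 others. With KO 2 and KO 3 alone against WT the values were 0.026 for Rpe65, 0.10 for Tyrp1, -0.0044 for Ttr, 0.033 for Mitf and 0.14 for Pmel. On WT 2, WT 3, KO 2 and KO 3 they were 0.12 for Rpe65, 0.25 for Tyrp1 and 0.13 for Mitf with the replicate number as a block, 0.13, 0.30, 0.13 and, for Pmel, 0.46 without the block, and 0.12, 0.26 and 0.13 with the crossed pairing. Tyr was 0.066 with the GC offset, and Best1 was 0.54 with voom and 0.043 with KO 4, KO 5 and KO 6 alone. Leaving out libraries gave -0.85 to 0.21 for Best1 (positive without WT 2) and -1.57 to 0.27 for Pmel (positive without WT 1 or KO 3, among others).

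In this paragraph the ranges without 1 or 2 libraries leave out the fit without KO 2 and KO 3. That fit is given as the one with KO 4, KO 5 and KO 6 alone. The edgeR count of 0 called among the 10 became 2 with DESeq2, 5 with voom, 5 with KO 4, KO 5 and KO 6 alone, 1 with the GC offset and 0 to 1 without 1 or 2 libraries (Dct, without KO 2 and KO 4). The 1529 genes called in all became 3127, 8248, 8416 and 1326 under the first 4 of these, 180 with KO 2 and KO 3 alone, and 118 to 3992 without 1 or 2 libraries. Library size alone moved the share called higher from 62.5% to 41.8%. The 4 called list genes became 2 with library size alone, 14 with DESeq2, 39 with voom, 0 with KO 2 and KO 3 alone, 53 with KO 4, KO 5 and KO 6 alone, and 0 to 17 without 1 or 2 libraries, with none called without WT 1, WT 2, WT 3 or KO 4. The replicate block called 52 genes in all and 0 list genes, against 14 and 0 without it. The shared numbers 2 and 3 were not shown to pair mice, since deviations of same-numbered libraries had r = -0.189 over 20167 genes. The crossed pairing called 527 genes in all and 16 list genes. The cause of these differences was not tested. Without Ttr the sum over members was 87.0 CPM in WT and 83.0 CPM in KO. With median transcript length Tyr was at 1.27, Tyrp1 at 5.72, Pmel at 10.4 and Mitf at 4.49 CPM per kilobase in WT. Depth limits Best1, at 2 to 17 counts.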

Other observations

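KO 5 was among the 3 lowest libraries for 7 of the 10 genes, more than any other library, and it had the smallest summed level, 91.4 CPM. KO 6 had the largest sum, 136.8 CPM, although it was among the 3 lowest for 5 of the 10. Without Ttr the sum was 57.8 CPM in KO 5 and 82.5 CPM in KO 6, and KO 2 was then the highest at 104.6 CPM.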
